A study of Homo sapiens with 10 samples.

Results

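Sterol genes were followed in 10 RNA libraries of CFPAC-1 and PANC-1, established lines of pancreatic adenocarcinoma. The set holds 31 genes of cholesterol synthesis, sterol sensing, intracellular sterol transport and sterol efflux. They were listed by name for their role, out of 20289 genes in the deposited table, with earlier results of these data known. Shares of the set given beside those of all genes are therefore descriptions and not tests of the set. The set does not hold every gene of the pathway. All 31 were found and all 31 passed the filter on low values, at least 1 FPKM in at least 2 libraries, which left 13077 genes for testing. ABCG1 passed through CFPAC-1 alone, so counts between the lines or within PANC-1 are also given for the other 30, a choice made after seeing the data.

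Cells of both lines had been kept for 24 h with imidazole ketone erastin (IKE) or with the solvent, 0.1% DMSO. IKE is an erastin derivative that blocks cystine import through system xc- and can bring on ferroptosis, a death by iron-dependent lipid peroxidation. The dose was 10 µM for CFPAC-1 but 1 µM for PANC-1, so that line and dose cannot be told apart in any comparison of the responses. Dead cells and debris were taken out and the survivors were sequenced, and the labels name no genetic change in either line. Each DMSO group had 2 libraries, as did the IKE group of CFPAC-1, while the IKE group of PANC-1 had 4. The labels call them bioreplicates without saying whether they are separate cultures, so each p-value reflects spread among these libraries alone, which may be technical. The libraries are bulk RNA. A lower value can therefore stand for fewer cells that express a gene or for less RNA in each cell, and these cannot be told apart.

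Cells make cholesterol from acetyl-CoA through the mevalonate route, which yields isoprenoid units, then squalene, then lanosterol, and at last cholesterol. The enzymes are under joint control of the SREBP factors, encoded by SREBF1 and SREBF2. When sterols in the endoplasmic reticulum are low, SCAP carries SREBP to the Golgi for activation, and when they are high the INSIG proteins hold it back. When oxysterols are high, liver X receptors switch on efflux pumps such as ABCA1 and ABCG1. The route touches ferroptosis at several points: it supplies isoprenoids for coenzyme Q and for the transfer RNA that carries selenocysteine into GPX4, and the sterol that DHCR7 consumes can trap lipid radicals.

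FPKM values, fragments scaled to transcript length and library total, summed to 405937 to 472665 per library, and read depth is unknown. Between 2.65% and 5.27% of this sum came from the mitochondrial genome, most in PANC-1 IKE replicate 3. All 6 epithelial markers reached 1 FPKM in every group, and KRT8 and KRT18 were at or above 1238.59 FPKM in every library. KRT7 and EPCAM were high in CFPAC-1 (151.91 to 330.41 FPKM) and low in PANC-1 (4.39 to 11.06 FPKM). CDH1 had 88.82 to 95.39 FPKM in CFPAC-1 and 12.80 to 15.68 FPKM in PANC-1. The mesenchymal markers were split. VIM (529.30 to 606.91 FPKM in CFPAC-1, 1909.56 to 2082.78 FPKM in PANC-1) and ZEB1 (6.49 to 9.25 and 10.64 to 13.38 FPKM) were higher in PANC-1. CDH2 was higher in CFPAC-1 (36.99 to 41.50 FPKM, against 14.07 to 16.86 FPKM). Of 5 fibroblast and stellate cell markers only COL1A1 reached 1 FPKM, and PTPRC, the pan-leukocyte marker, stayed at or below 0.03 FPKM. The myeloid markers CD68 (23.98 to 46.26 FPKM in all libraries) and LYZ (20.40 to 26.08 FPKM in CFPAC-1) were present. Of the endothelial markers, CDH5 and VWF stayed at or below 0.30 FPKM while PECAM1 ranged from 18.45 to 21.29 FPKM in CFPAC-1. PANC-1 IKE replicate 2 stood apart from the other 3 libraries of its group for these sterol genes: it held the highest value for 16 of 31, against 35.6% of all tested genes. Calls that changed without it are given, as are the median response of PANC-1 and the median difference between the lines with and without it. Summed levels, counts of non-overlapping groups and counts at an unadjusted p are given with it only.

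Without drug, 25 of the 31 genes differed in RNA level between the lines, as did 10286 of all 13077 tested genes (limma, adjusted p under 0.05). A difference as such is therefore not particular to this set. CFPAC-1 had more RNA of the transport genes, of ABCA1 and of several synthesis genes, and PANC-1 of other synthesis genes. Of the 31 genes, 16 were lower in PANC-1 and 9 were higher (limma, adjusted p under 0.05), beside 35.2% of all genes lower and 43.4% higher. Without ABCG1, 15 of 30 were lower and 9 higher. Changes are log2 fold changes of FPKM + 1, a scale that understates changes at low values. The median over all tested genes was 0.12 on this scale and -0.01 when FPKM was rescaled by median ratios, and the median over the 31 was -0.31 and -0.44. With that rescaling 17 were lower and 8 higher, since PMVK lost its call (adjusted p = 0.0908) and MVD gained one (adjusted p = 0.0203).

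**Figure D1:**
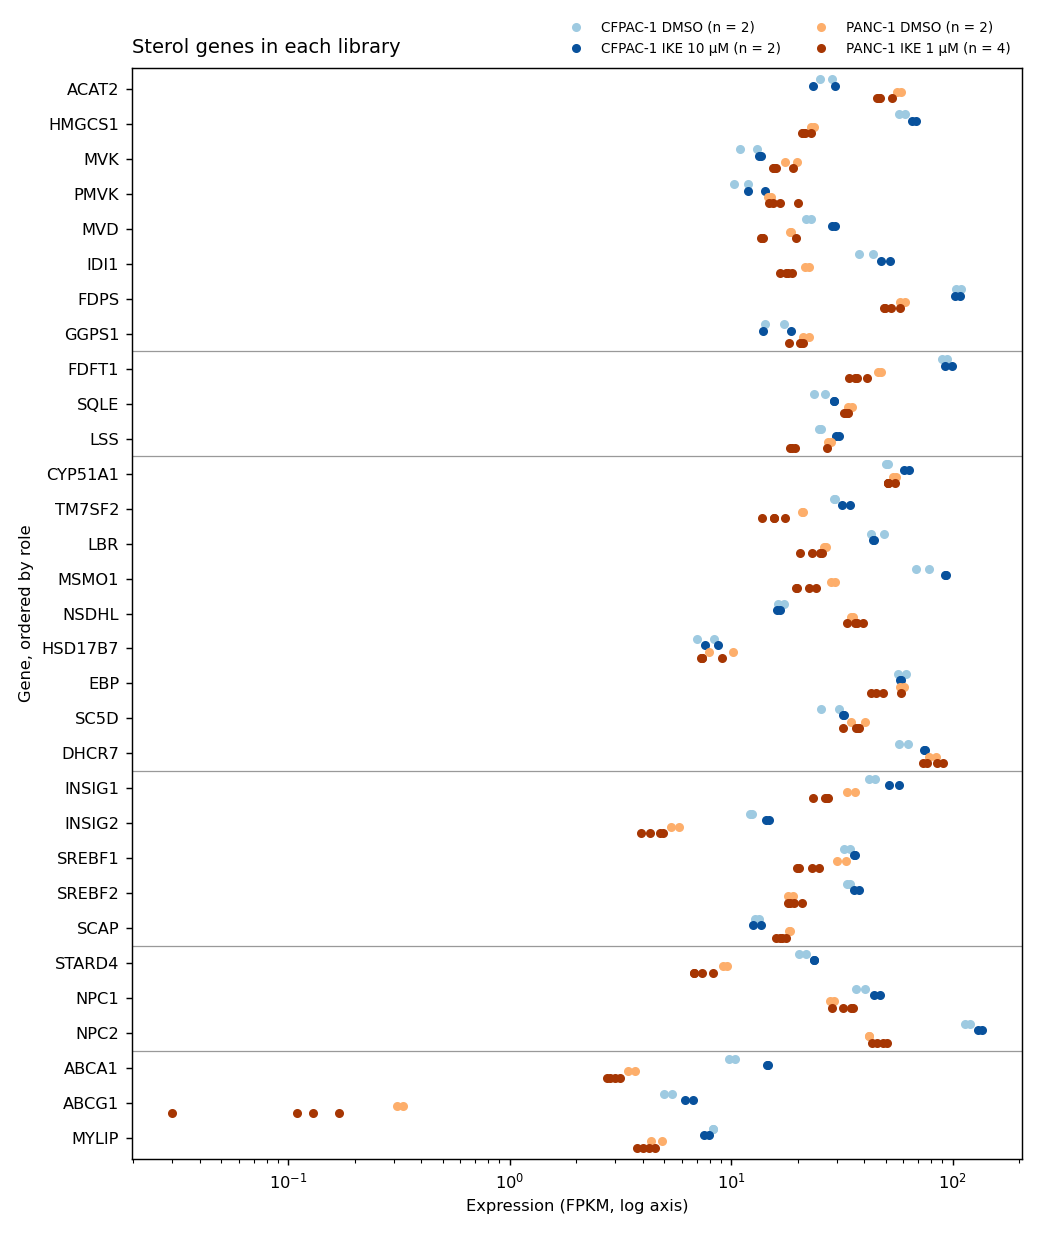
Expression of the 31 sterol genes in each library, in FPKM on a log axis, ordered by role with lines between roles; each point is 1 library and colours mark the 4 groups. The CFPAC-1 points of HMGCS1, MSMO1, NPC2, ABCA1 and ABCG1 lie to the right of all PANC-1 points, and those of ACAT2 and NSDHL to the left.

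Among the early steps, HMGCS1, which condenses acetyl units into the precursor of mevalonate, had 61.07 and 57.51 FPKM in CFPAC-1 DMSO and 23.59 and 22.97 FPKM in PANC-1 DMSO. It was lower in PANC-1 by a log2 value of -1.31 (SE 0.07, adjusted p = 1.21e-08). ACAT2, the cytosolic thiolase that supplies it, ran the other way, with 25.11 and 28.49 FPKM against 58.60 and 55.88 FPKM (log2 fold change 1.07, adjusted p = 2.98e-06). Neither pair of groups overlapped. ACAT2 shares 26.5% of its exonic bases with SOD2 and 9.2% with TCP1 on the opposite strand, and the sources used here do not say whether counting used the strand, so its level is uncertain. The isomerase gene IDI1 (-0.85) and the farnesyl diphosphate synthase gene FDPS (-0.84) were lower in PANC-1. They too share exonic bases with antisense genes on the opposite strand, 14.8% for IDI1 and 18.6% for FDPS. The mevalonate kinase gene MVK (0.60), the next kinase gene PMVK (0.39, adjusted p = 0.0198) and GGPS1 of the branch to protein prenylation (0.45, adjusted p = 0.00737) were higher. PMVK fell short of a call without CFPAC-1 DMSO replicate 1, PANC-1 DMSO replicate 1 or PANC-1 DMSO replicate 2 (adjusted p from 0.05 to 0.134), and GGPS1 without CFPAC-1 DMSO replicate 1 (adjusted p = 0.0794). GGPS1 also shares 37.3% of its exonic bases with TBCE on the same strand.

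Later steps were split as well. FDFT1, the squalene synthase, was lower in PANC-1 (-0.96, adjusted p = 6.62e-07), whereas SQLE, the squalene epoxidase, was higher (0.44, adjusted p = 1.44e-04). After lanosterol, MSMO1, which removes methyl groups from the sterol ring, had 78.64 and 68.53 FPKM in CFPAC-1 DMSO and 29.34 and 28.21 FPKM in PANC-1 DMSO (log2 fold change -1.32, SE 0.10, adjusted p = 2.29e-07). NSDHL, which acts in the same demethylation, had 17.35 and 16.25 FPKM against 35.65 and 34.93 FPKM (log2 fold change 1.03, SE 0.08, adjusted p = 3.47e-07). Enzymes of the same reaction series thus stood in opposite order in the lines. Both sterol reductase genes of the step after CYP51A1, TM7SF2 (-0.45) and LBR (-0.77), were lower in PANC-1. SC5D (0.40, adjusted p = 0.00475) and DHCR7 (0.43, adjusted p = 0.00146), which make and use a late precursor of cholesterol, were higher. SC5D fell short without replicate 2 of the CFPAC-1 controls or replicate 1 of the PANC-1 controls (adjusted p from 0.0539 to 0.0606). LSS, CYP51A1, EBP and HSD17B7 had log2 values of 0.00 to 0.21 and were not called, nor was the early enzyme gene MVD (-0.27, adjusted p = 0.107). MVD was called as lower without PANC-1 IKE replicate 2 (adjusted p = 0.00324), which enters here through the pooled spread alone. It was also called with PANC-1 IKE replicates 3 and 4 alone (adjusted p = 0.00432) and after quantile normalization (adjusted p = 0.0372).

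Of the sensing genes, SREBF2 had 34.33 and 33.55 FPKM in CFPAC-1 DMSO and 19.09 and 18.13 FPKM in PANC-1 DMSO (log2 fold change -0.83, SE 0.08, adjusted p = 1.79e-06). SREBF1 had 34.32 and 32.27 FPKM against 29.93 and 32.94 FPKM, overlapping groups without a call (95% interval of the log2 difference -0.31 to 0.15). INSIG2 was lower in PANC-1 (-1.01, adjusted p = 4.04e-06) and SCAP, the escort of SREBP, was higher (0.46, adjusted p = 2.95e-04). INSIG1 had a log2 fold change of -0.31 (adjusted p = 0.00828), a call lost without replicate 1 of the CFPAC-1 controls or replicate 2 of the PANC-1 controls (adjusted p from 0.0611 to 0.0669).

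All 3 transport genes were lower in PANC-1, as were ABCA1 and MYLIP among the efflux and liver X receptor target genes. NPC2, which hands cholesterol to NPC1 in the lysosome, was the member with the highest mean in CFPAC-1 DMSO, 117 ± 4.09 FPKM (SD, n = 2), and had 42.1 ± 0.0636 FPKM (SD, n = 2) in PANC-1 DMSO (log2 fold change -1.46, adjusted p = 9.06e-09). The sterol carrier gene STARD4 (-1.08) and NPC1 (-0.41) were lower too. ABCG1, an efflux pump to lipoproteins, had 4.96 and 5.41 FPKM in CFPAC-1 DMSO and 0.31 and 0.33 FPKM in PANC-1 DMSO. It reached 1 FPKM in CFPAC-1 libraries only and entered the test through them, so it had to differ and no fold or p is given for it here. ABCA1, the pump that loads lipid-poor apolipoprotein, had a log2 fold change of -1.28 (adjusted p = 1.94e-07), and MYLIP, a ubiquitin ligase gene, one of -0.72 (adjusted p = 5.91e-05).

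With 10 µM IKE, surviving CFPAC-1 cells had slightly higher values for most sterol genes than with DMSO, and 1 of them, ABCA1, rose. The summed level of the 31 genes was 1126 to 1164 FPKM with DMSO and 1274 to 1292 FPKM with IKE. Both IKE libraries lay above both DMSO libraries in 21 of 31 genes, against 23.0% of all tested genes, and both lay below in 1, against 23.9%. The median log2 fold change was 0.17 over the 31 genes and 0.00 over all tested genes. By limma 1 gene rose and 0 fell of 31, beside 0.864% and 0.459% of all genes. At an unadjusted p under 0.05, 12 were up and 0 down, beside 6.50% and 7.10% of all genes.

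ABCA1 (chromosome 9, 104781002 to 104928237 on the minus strand, GRCh38) had 9.74 and 10.38 FPKM in the DMSO libraries and 14.72 and 14.48 FPKM in the IKE libraries. Both IKE libraries were above both DMSO libraries. The log2 fold change was 0.50 (SE 0.10, adjusted p = 0.0299). The call was lost without CFPAC-1 DMSO replicate 1 or 2, or IKE replicate 1 or 2 (adjusted p from 0.115 to 0.185). It was also lost with a pseudocount of 0.1 (adjusted p = 0.0756) and with CFPAC-1 fitted alone (adjusted p = 0.115), while the sign held in each. ABCG1, its partner in efflux, had 4.96 and 5.41 FPKM with DMSO and 6.19 and 6.73 FPKM with IKE, without a call (0.27, adjusted p = 0.270). MYLIP, another target of the liver X receptors, had 8.28 and 8.25 FPKM with DMSO and 7.96 and 7.55 FPKM with IKE, the single gene of the set whose IKE libraries both lay below (-0.08, adjusted p = 0.814).

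Synthesis enzymes gave 0 calls of 20 with limma in CFPAC-1, and at an unadjusted p under 0.05 the early steps had 3 of 8 up, the squalene and lanosterol steps 1 of 3 and the later steps 3 of 9, beside 6.50% of all genes. The values farthest from 0 were those of the decarboxylase gene MVD (0.35, adjusted p = 0.299), MSMO1 (0.33, adjusted p = 0.158), DHCR7 (0.31, adjusted p = 0.160), CYP51A1, the lanosterol demethylase (0.28, adjusted p = 0.0623), and IDI1 (0.28, adjusted p = 0.179). MSMO1 had 78.64 and 68.53 FPKM with DMSO and 93.20 and 92.51 FPKM with IKE. CYP51A1 had 51.22 and 49.89 FPKM with DMSO and 63.49 and 60.08 FPKM with IKE. Both IKE libraries were the higher ones in these 5, an order found in 23.0% of all tested genes. Picking the genes for large changes favours that order, so it adds no support. When PANC-1 IKE replicate 2 was left out, which changes only the pooled estimate of the spread, 3 members were called as risen: ABCA1, CYP51A1 (adjusted p = 0.0478) and MVD (adjusted p = 0.0260). Over all genes 151 were then called as risen, against 113 with every library. CYP51A1 shares 79.4% of its exonic bases with the gene AC000120.2 on the same strand, so its level is uncertain. HMGCS1 had 61.07 and 57.51 FPKM with DMSO and 68.56 and 65.30 FPKM with IKE (0.17, adjusted p = 0.321). SQLE had 26.49 and 23.74 FPKM with DMSO and 29.01 FPKM in both IKE libraries (0.20, adjusted p = 0.231). ACAT2, FDPS, GGPS1, FDFT1, LBR, NSDHL, HSD17B7 and EBP overlapped between the groups.

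Of the 5 sensing genes 0 were called in CFPAC-1 with limma, and 1, INSIG1, was up at an unadjusted p under 0.05. INSIG1, itself under SREBP control, had 44.75 and 41.81 FPKM with DMSO and 51.80 and 57.35 FPKM with IKE (0.33, adjusted p = 0.118), and INSIG2 had 12.38 and 12.13 FPKM against 14.36 and 14.81 FPKM (0.23, adjusted p = 0.375). SREBF1 had 34.32 and 32.27 FPKM against 36.17 and 36.04 FPKM, and SREBF2 34.33 and 33.55 FPKM against 35.78 and 37.65 FPKM. These 4 genes had both IKE libraries above both DMSO libraries, as did 23.0% of all genes, and SCAP overlapped. NPC1 (0.24), NPC2 (0.18) and STARD4 (0.16) had non-overlapping groups in the same order and adjusted p of 0.310, 0.329 and 0.541.

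With 1 µM IKE, surviving PANC-1 cells had lower values for most of the set. Of 31 genes, 5 fell and 0 rose, beside 1.17% and 1.21% of all genes: SREBF1, INSIG1, MSMO1, TM7SF2 and FDFT1. All 4 IKE libraries lay below both DMSO libraries in 16 of 31 genes, against 13.6% of all tested genes, and above them in 1, NPC2, against 12.3%. The summed level was 881 to 911 FPKM with DMSO and 785 to 860 FPKM with IKE. The median log2 fold change was -0.18 over the 31 genes and -0.01 over all. Without PANC-1 IKE replicate 2 these medians were -0.225 and -0.01. At an unadjusted p under 0.05, 15 were down and 1 up, beside 9.25% and 8.37% of all genes. Without ABCG1, 15 of 30 genes lay below, and 14 of 30 were down at an unadjusted p under 0.05.

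**Figure D2:**
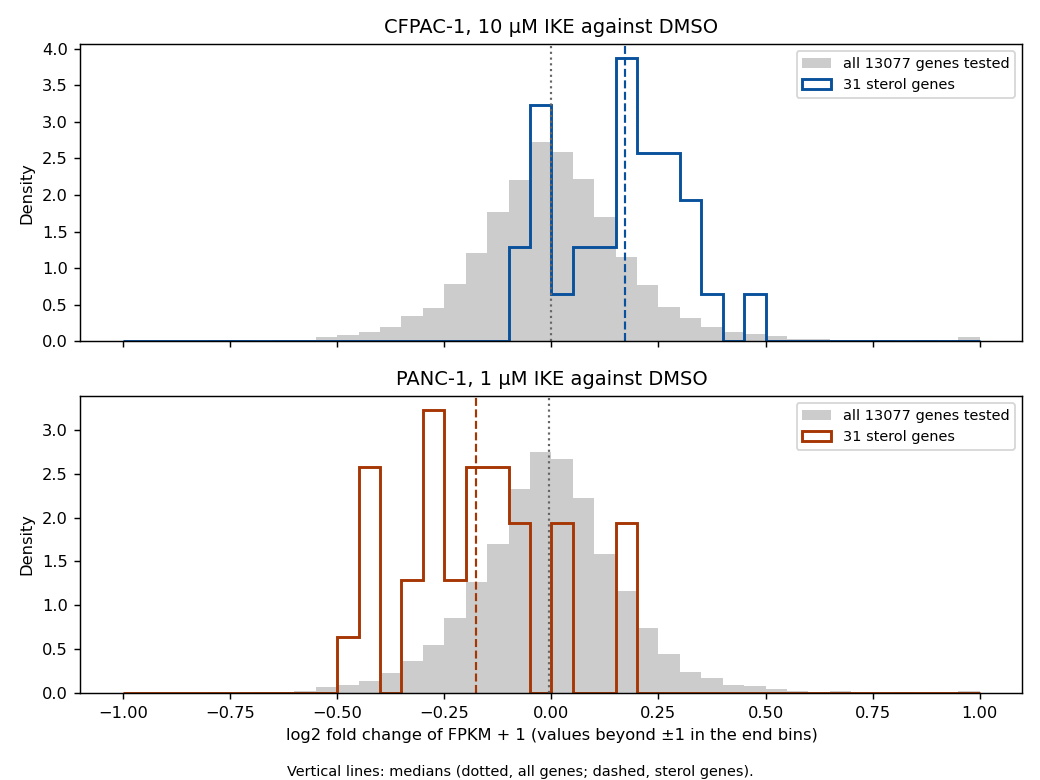
Distribution of log2 fold changes of FPKM + 1 for IKE against DMSO, CFPAC-1 above and PANC-1 below, as densities for all 13077 tested genes (grey) and the 31 sterol genes (outline). The dashed medians of the sterol genes stand at 0.17 and -0.18, beside dotted medians of all genes at 0.00 and -0.01.

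SREBF1, the SREBP gene tied most to fatty acid synthesis (chromosome 17, 17810399 to 17837002, minus strand), had 29.93 and 32.94 FPKM with DMSO and 19.94, 25.08, 23.26 and 20.31 FPKM with IKE. The highest IKE library was below the lowest DMSO library. The log2 fold change was -0.49 (SE 0.09, adjusted p = 0.0202). SREBF2, the SREBP gene tied most to cholesterol synthesis, had 19.09 and 18.13 FPKM with DMSO and 19.24, 20.83, 18.51 and 18.05 FPKM with IKE. Its groups overlapped, and the 95% interval of its log2 fold change ran from -0.12 to 0.19. INSIG1 (chromosome 7, 155297776 to 155310235, plus strand) had 36.21 and 33.47 FPKM with DMSO and 27.36, 26.69, 23.55 and 27.14 FPKM with IKE, without overlap (log2 fold change -0.40, SE 0.08, adjusted p = 0.0233). SREBF1 and INSIG1 lost their calls without PANC-1 DMSO replicate 1 or 2 (adjusted p from 0.122 to 0.152 for SREBF1 and from 0.0912 to 0.242 for INSIG1). INSIG2 had 5.36 and 5.80 FPKM against 4.94, 4.78, 3.93 and 4.29 FPKM, in the same order but without a call (-0.27, adjusted p = 0.168). SCAP had 18.55 and 18.33 FPKM against 16.90, 17.73, 16.56 and 15.94 FPKM (-0.13, adjusted p = 0.382).

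Of the enzymes, MSMO1 (chromosome 4, 165327623 to 165343160, plus strand) had 29.34 and 28.21 FPKM with DMSO and 24.06, 19.60, 19.95 and 22.59 FPKM with IKE (log2 fold change -0.41, SE 0.09, adjusted p = 0.0387). TM7SF2, a sterol reductase (chromosome 11, 65111845 to 65116384, plus strand), had 21.01 and 21.16 FPKM with DMSO and 15.60, 17.56, 13.78 and 15.64 FPKM with IKE (log2 fold change -0.41, SE 0.09, adjusted p = 0.0304). In both genes every IKE library was the lower one. FDFT1, where carbon commits to sterols, had 47.45 and 46.07 FPKM with DMSO and 36.90, 41.03, 34.14 and 36.32 FPKM with IKE (log2 fold change -0.33, SE 0.07, adjusted p = 0.0419). LBR, which shares the reductase step with TM7SF2, had 26.16 and 26.92 FPKM against 25.79, 20.55, 23.19 and 25.25 FPKM, without a call (-0.16, adjusted p = 0.395). In FDFT1 as well every IKE library was below both DMSO libraries. Its call was lost when any 1 library was left out, at adjusted p from 0.0622 to 0.278, except for PANC-1 IKE replicate 2. TM7SF2 lost its own in the same way, except for PANC-1 IKE replicates 2 and 3 (adjusted p from 0.0546 to 0.220). MSMO1 lost it without CFPAC-1 IKE replicate 1 or 2, PANC-1 DMSO replicate 1 or 2, or PANC-1 IKE replicate 3 or 4 (adjusted p from 0.058 to 0.267). With a control left out, the lone control of that arm is assumed to vary like the other groups. With PANC-1 fitted alone the 5 calls were lost (adjusted p from 0.102 to 0.134), and without a filter on low values those of FDFT1, TM7SF2 and MSMO1 were lost (adjusted p from 0.0568 to 0.0718).

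Several counts of calls moved with the library left out, over all genes too. Fallen members numbered 3 without CFPAC-1 DMSO replicate 1 or 2, or PANC-1 IKE replicate 1 (107, 107 and 84 of all tested genes, against 153 with every library). They numbered 2 without CFPAC-1 IKE replicate 1 or 2, or PANC-1 IKE replicate 4 (90, 90 and 77 of all genes). They numbered 0 without PANC-1 DMSO replicate 1 or 2 (7 and 23 of all genes), and 8 without PANC-1 IKE replicate 2 (297 of all genes). The 3 genes added in the last case were LSS (adjusted p = 0.00295), MVD (adjusted p = 0.00789) and EBP (adjusted p = 0.0143). LSS, which closes the sterol rings, had 28.24 and 27.28 FPKM with DMSO and 18.47, 27.23, 18.87 and 19.44 FPKM with IKE. MVD had 18.40 and 18.62 FPKM against 13.95, 19.55, 13.62 and 13.76 FPKM, and EBP, a sterol isomerase, 60.47 and 58.20 FPKM against 48.53, 58.26, 45.04 and 42.82 FPKM. In these 3 genes replicate 2 was near the DMSO libraries and the other 3 IKE libraries were well below them. With all libraries they were not called (adjusted p = 0.128, 0.262 and 0.164). Without PANC-1 IKE replicate 3, STARD4 was called as fallen (adjusted p = 0.0360). Its values were 9.60 and 9.17 FPKM with DMSO and 6.80, 6.81, 8.30 and 7.40 FPKM with IKE.

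**Figure D3:**
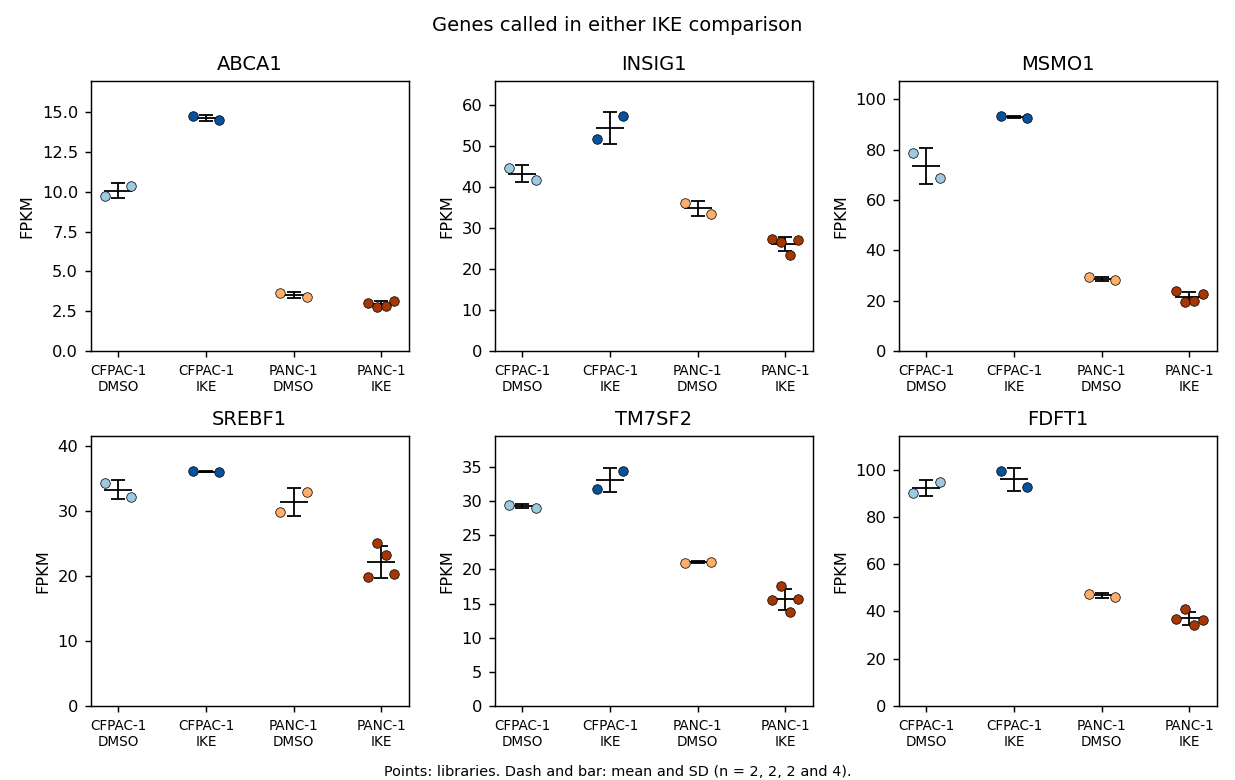
FPKM of the 6 genes called in either IKE comparison, 1 panel a gene from 0, with 1 point per library and the mean and SD of each group (n = 2, 2, 2 and 4). ABCA1 is higher with IKE in CFPAC-1, and INSIG1, MSMO1, SREBF1, TM7SF2 and FDFT1 are lower with IKE in PANC-1.

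Several steps were not called in PANC-1, and some of their groups overlapped. HMGCS1 had 23.59 and 22.97 FPKM with DMSO and 23.04, 21.22, 20.80 and 21.53 FPKM with IKE (-0.10, adjusted p = 0.444). DHCR7 had 83.99 and 78.42 FPKM against 73.82, 90.84, 85.20 and 76.86 FPKM, with a 95% interval of its log2 fold change from -0.18 to 0.19. SQLE had 33.58 and 35.15 FPKM against 33.43, 32.26, 32.97 and 33.56 FPKM, just below without overlap (-0.05, adjusted p = 0.719). The lysosomal pair had positive values, NPC1 0.19 (adjusted p = 0.296) and NPC2 0.15 (adjusted p = 0.262), and NPC2 had 42.14 and 42.05 FPKM with DMSO and 45.65, 50.73, 43.24 and 48.56 FPKM with IKE. ABCA1 had 3.67 and 3.41 FPKM with DMSO and 3.00, 2.76, 2.84 and 3.16 FPKM with IKE, without overlap and without a call (-0.20, adjusted p = 0.234). ABCG1 had 0.31 and 0.33 FPKM against 0.03, 0.17, 0.13 and 0.11 FPKM. These levels are under the filter's 1 FPKM, so its order between the groups rests on few fragments. MYLIP had 4.90 and 4.34 FPKM against 3.77, 4.27, 4.54 and 3.99 FPKM, which overlapped.

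The responses of the lines were then compared directly, as PANC-1 minus CFPAC-1. The difference was negative in 30 of 31 genes (29 of 30 without ABCG1), beside 6719 of all 13077 tested genes. The exception was NSDHL at 0.08. The median difference was -0.27 beside -0.01 over all tested genes, and -0.345 beside -0.01 without PANC-1 IKE replicate 2. By limma 1 of 31 differed, INSIG1, beside 0.229% of all genes called in this direction and 0.107% in the other, in which 0 of 31 were called. At an unadjusted p under 0.05 the counts were 16 and 0, or 15 and 0 of 30 without ABCG1, beside 6.52% and 5.83% of all genes. In 19 of 31 genes the fold change was positive in CFPAC-1 and negative in PANC-1 (18 of 30 without ABCG1), against 23.8% of all tested genes. In 11 of 31 genes both CFPAC-1 IKE libraries lay above their controls and all 4 PANC-1 IKE libraries below theirs, against 2.26% of all tested genes. The 11 included ABCG1, whose PANC-1 levels were all under 1 FPKM. The other 10, of 30, were ABCA1, IDI1, INSIG1, INSIG2, LSS, MSMO1, SQLE, SREBF1, STARD4 and TM7SF2.

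INSIG1 went from 43.3 ± 2.08 to 54.6 ± 3.92 FPKM in CFPAC-1 (SD, n = 2 in each group) and from 34.8 ± 1.94 (SD, n = 2) to 26.2 ± 1.78 FPKM (SD, n = 4) in PANC-1. The difference of the log2 fold changes was -0.73 (SE 0.12, adjusted p = 0.0256). The call was lost when CFPAC-1 DMSO replicate 1 or 2, CFPAC-1 IKE replicate 1 or 2, or PANC-1 DMSO replicate 1 or 2 was left out (adjusted p from 0.0671 to 0.155). MSMO1 (-0.74, SE 0.13) and ABCA1 (-0.70, SE 0.13) had an adjusted p of 0.0510 each, and differences of similar size to that of INSIG1. LSS (-0.66), MVD (-0.64), SREBF1 (-0.61), TM7SF2 (-0.58) and IDI1 (-0.58) followed, at adjusted p from 0.0838 to 0.213. Without PANC-1 IKE replicate 2, 5 genes differed: INSIG1, MVD (adjusted p = 0.00687), LSS (adjusted p = 0.00594), TM7SF2 (adjusted p = 0.0397) and SREBF1 (adjusted p = 0.0471). Over all genes 46 were called in this direction without that library and 30 with it. Without PANC-1 IKE replicate 1, 2 differed: INSIG1 and MSMO1 (adjusted p = 0.0409). For NPC2 the 95% interval of the difference ran from -0.25 to 0.20 and for SREBF2 from -0.31 to 0.16.

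**Figure D4:**
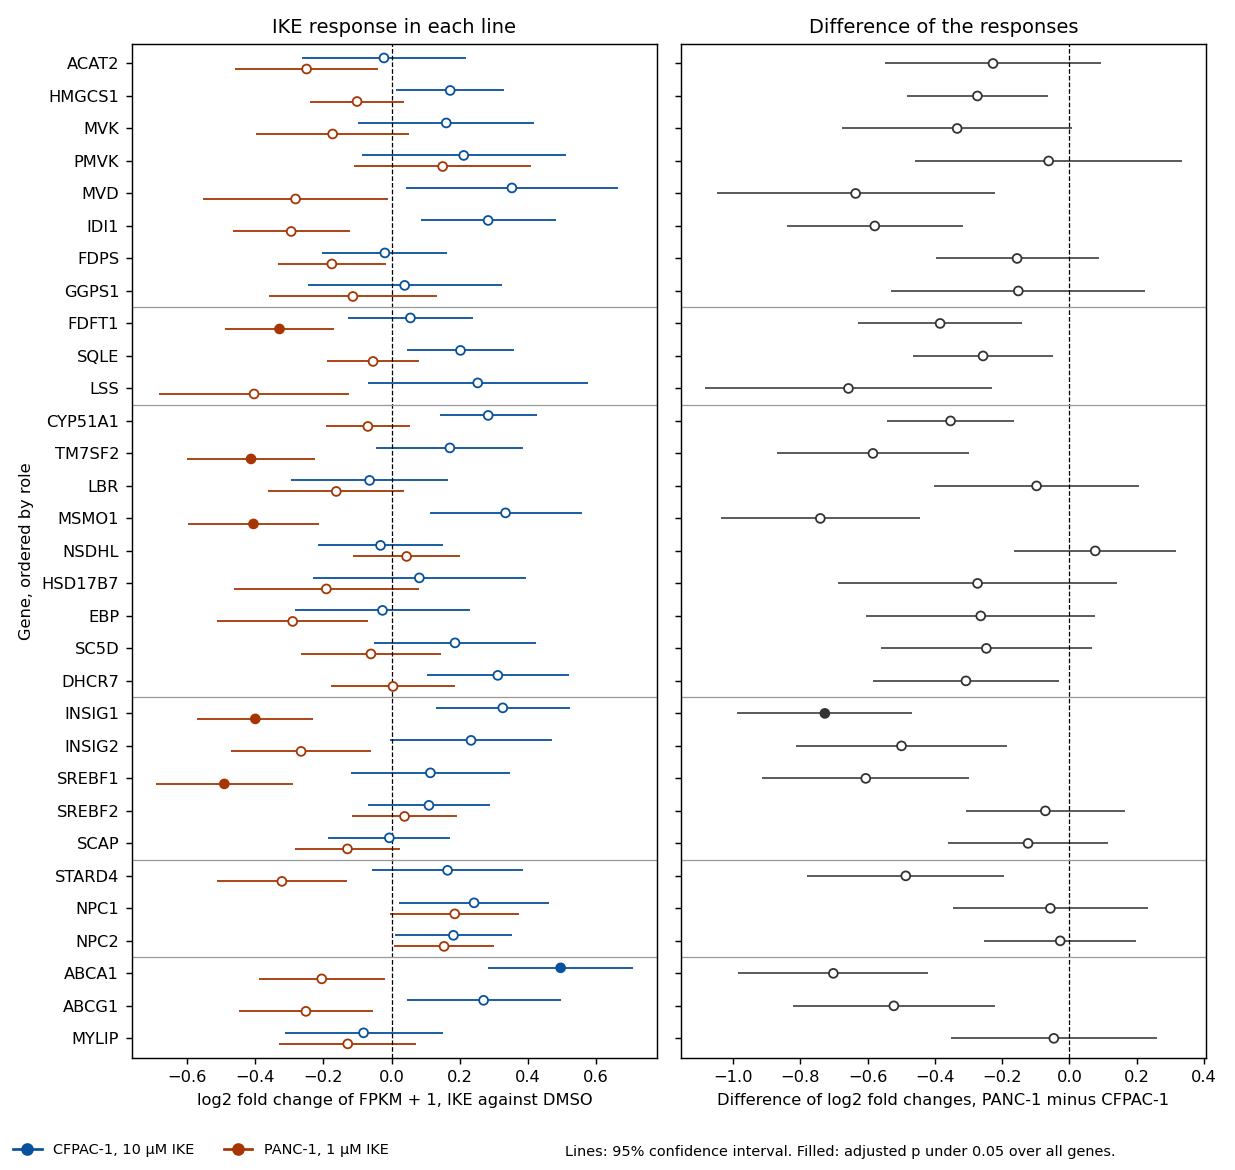
Left, log2 fold change of FPKM + 1 for IKE against DMSO in CFPAC-1 (blue) and PANC-1 (red-brown); right, their difference, PANC-1 minus CFPAC-1, for each of the 31 genes with 95% confidence intervals, filled where adjusted p is under 0.05. Blue points lie mostly right of 0 and red-brown points mostly left of it, and the difference is filled for INSIG1 alone, at -0.73.

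The promoters of the set were searched for letters bound by factors of this pathway. Promoter windows from RefSeq (build GRCh38.p14, 250 bases before to 50 after each annotated start) were matched for 27 of 31 genes, with 36 windows. ACAT2, FDFT1, SQLE and ABCG1 had no entry. Motifs were searched on both strands, and a match is a description of letters only. The CCAAT letters, bound by NF-Y, an SREBP partner, were in 19 of the 27 genes (70.4%) against 39.7% of all 27305 genes in the table. GGGCGG, bound by Sp1, was in 25 of 27 (92.6%) against 48.3%. TCACNCCAC, a form of the sterol regulatory element that SREBP binds, was in 1 of 27 (3.70%), SREBF2, against 1.39% of all genes. TGATGNAA, bound by ATF4 with C/EBP factors, was in 0 of 27 against 4.46%. The shares over all genes include genes not expressed in these lines, whereas all members passed the filter. Shares over the tested genes alone were not taken, so these contrasts are not like with like. The windows of INSIG1, MSMO1 and TM7SF2 are printed because these genes fell in PANC-1 and hold CCAAT, and that of SREBF2 because it holds the sterol element. They were picked after the values were seen. Capitals mark CCAAT (or ATTGG, its reverse complement) and TCACNCCAC.
INSIG1, chr7:155297628-155297927, plus strand: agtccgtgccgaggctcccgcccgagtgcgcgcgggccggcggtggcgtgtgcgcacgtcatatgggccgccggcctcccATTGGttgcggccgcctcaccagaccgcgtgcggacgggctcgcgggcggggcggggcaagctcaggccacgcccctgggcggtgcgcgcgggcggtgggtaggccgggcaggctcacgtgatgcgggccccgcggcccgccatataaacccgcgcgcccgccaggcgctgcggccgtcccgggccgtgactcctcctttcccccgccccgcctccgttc
MSMO1, chr4:165327419-165327718, plus strand: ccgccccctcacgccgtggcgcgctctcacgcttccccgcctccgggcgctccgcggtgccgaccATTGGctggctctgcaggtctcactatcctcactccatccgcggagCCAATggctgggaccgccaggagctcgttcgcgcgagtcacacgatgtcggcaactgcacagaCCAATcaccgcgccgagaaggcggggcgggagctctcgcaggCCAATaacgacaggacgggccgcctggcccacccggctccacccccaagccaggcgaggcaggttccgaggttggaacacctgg
TM7SF2, chr11:65111622-65111921, plus strand: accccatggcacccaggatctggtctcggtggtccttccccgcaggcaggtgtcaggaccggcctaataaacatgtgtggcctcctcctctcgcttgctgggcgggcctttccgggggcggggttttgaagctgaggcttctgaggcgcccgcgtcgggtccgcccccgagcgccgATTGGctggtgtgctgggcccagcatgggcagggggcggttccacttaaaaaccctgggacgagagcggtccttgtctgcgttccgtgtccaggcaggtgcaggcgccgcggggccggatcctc
SREBF2, chr22:41832855-41833154, plus strand: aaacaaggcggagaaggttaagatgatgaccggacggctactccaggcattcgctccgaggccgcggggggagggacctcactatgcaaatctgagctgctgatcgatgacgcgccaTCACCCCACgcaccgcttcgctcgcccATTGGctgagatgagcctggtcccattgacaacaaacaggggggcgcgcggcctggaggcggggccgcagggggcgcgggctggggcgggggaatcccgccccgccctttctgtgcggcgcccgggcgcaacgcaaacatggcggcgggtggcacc
MSMO1 holds CCAAT letters at 4 places in these 300 bases, while INSIG1, TM7SF2 and SREBF2 hold them at 1 each. The windows of SREBF1 and ABCA1, which were called in PANC-1 and in CFPAC-1, hold none, as do those of CYP51A1, INSIG2, LBR, NPC1, PMVK and SCAP.

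Other genes of the pathway, from lists set by role, gave 0 calls with limma in either IKE comparison or in their difference. Of all genes, 0.864% rose and 0.459% fell in CFPAC-1, and 1.21% and 1.17% in PANC-1. For the difference 0.107% were called up and 0.229% down. At such shares, lists of 10 or 11 genes can give 0 calls without differing from all genes. For the difference, at an unadjusted p under 0.05, the sensing list had 0, the storage list 1 up and 1 down, and the isoprenoid list 1 up. Of all genes 5.83% were up and 6.52% down by that rule. The 1 up in the storage list was GRAMD1B, named after its values were seen, which was at 36.25 to 45.17 FPKM in CFPAC-1 and 0.13 to 0.41 FPKM in PANC-1 and passed the filter through CFPAC-1 alone. In sterol sensing and turnover, 10 genes had a median log2 fold change of 0.07 in CFPAC-1 and -0.06 in PANC-1, with 0 up at an unadjusted p under 0.05 in CFPAC-1 and 1 in PANC-1. In sterol storage and transport, 10 genes had medians of 0.00 and -0.05. In the isoprenoid branch, 11 genes of dolichol, coenzyme Q, protein prenylation and transfer RNA isopentenylation had medians of -0.07 and 0.04. At an unadjusted p under 0.05 the storage list had 1 up in CFPAC-1, and 1 up and 1 down in PANC-1. The isoprenoid list had 1 down in CFPAC-1, and 1 up and 1 down in PANC-1. Beside these counts, 6.50% of all genes were up and 7.10% down in CFPAC-1, and 8.37% and 9.25% in PANC-1. Between the lines with DMSO, the sensing list had 3 genes higher in PANC-1 and 4 lower, the storage list 4 and 6 (4 and 5 without GRAMD1B), and the isoprenoid list 5 and 4. Over all genes 43.4% were higher and 35.2% lower.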

How the data were processed

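RNA of 10 libraries was measured. Per the labels' protocols, rRNA was removed, cDNA was primed at random, and its second strand was digested, so libraries keep the strand. Per the submitters' processing notes, the build was GRCh38, and tools named were HISAT2 2.1.0, Bowtie2 2.2.8, StringTie 1.3.4, fastp 0.18.0 and an unversioned DESeq2. The sources used here do not give the role of each or the annotation. The authors deposited FPKM values rounded to 2 decimals, with no counts, so depth and counting error are unknown. The table's 9 empty columns were not used.

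The 13077 genes that reached 1 FPKM in 2 or more libraries were tested on log2(FPKM + 1) with limma 3.58.1 in R 4.3.3: 1 mean per group over all 10 libraries, an intensity trend in the prior, 6 residual and 5.1 prior degrees of freedom, two-sided, Benjamini-Hochberg adjustment over all genes. The fit was tested on simulated data. Coordinates and exon overlaps are from GENCODE 29. Genes were named by role and call. Members called in an IKE comparison, and 11 set by role, are given library by library in at least 1 comparison. Some members called only between the lines with DMSO are given by log2 fold change alone. Some others were picked after their values were seen. The members and lists were chosen with earlier results of these data known. Alternatives were quantile and median-ratio scaling, no filter, at least 5 FPKM, a pseudocount of 0.1, a replicate block, each line alone, PANC-1 IKE replicates 1 and 2 or 3 and 4 alone, and each library left out.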

Additional observations from a re-analysis of the deposited data

Results flagged for a closer look

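In PANC-1 with IKE, 6 of 31 genes had 1 library far from the other 3. Chance gives about 1 in 20 for independent normal values. The share of all tested genes under the same rule was not taken, so no excess particular to these genes is shown. In 5 of the 6 genes the far library was replicate 2, above the others, so these are not independent. That library was the highest of its group for 35.6% of all tested genes. LSS had 27.23 FPKM there against 18.47 to 19.44 FPKM, MVD 19.55 against 13.62 to 13.95 FPKM, and MVK 18.97 against 15.48 to 16.01 FPKM. ACAT2 had 53.09 FPKM in that library against 45.78 to 46.99 FPKM, and HSD17B7 9.08 against 7.28 to 7.43 FPKM. In CYP51A1 it was replicate 1, with 54.81 FPKM against 51.02 to 51.26 FPKM. The summed FPKM of replicate 2 was also the highest of all libraries, 472665, and its part in these values was not tested.

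The IKE response of INSIG1 differed between the lines by -0.73 on the log2 scale (PANC-1 minus CFPAC-1, limma adjusted p = 0.0256). All 4 PANC-1 IKE libraries were below their controls and both CFPAC-1 IKE libraries above theirs, as in 2.26% of all tested genes. INSIG1 was picked for its call, so this order adds no support. The call was lost in 8 of 18 alternative fits, and line and dose cannot be told apart.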

How the results depend on the processing

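No value called in any comparison changed sign under any alternative run. Of 450 refitted values for the 25 genes called between the lines with DMSO, 441 kept their call. These include 18 for ABCG1, which entered the test through CFPAC-1 alone and had to differ, so they add no support. With IKE, 11 of 19 kept it for ABCA1 in CFPAC-1, 50 of 95 for the 5 genes in PANC-1 and 10 of 18 for the difference of INSIG1. Risen members in CFPAC-1 numbered 2 without a filter, 0 with a pseudocount of 0.1, with the replicate block, with each line alone or with PANC-1 IKE replicates 1 and 2 alone, and 3 with replicates 3 and 4 alone, or 0 to 3 with single libraries left out. Fallen members in PANC-1 numbered 2 without a filter, 0 with the replicate block or each line alone, 1 with replicates 1 and 2 alone (STARD4, adjusted p = 0.0499, while the 5 reported genes lost their calls) and 8 with replicates 3 and 4 alone, or 0 to 8 with single libraries left out. Members with a different response numbered 2 with quantile normalization, 3 at a minimum of 5 FPKM, 0 with the replicate block or with replicates 1 and 2 alone, and 5 with replicates 3 and 4 alone, or 0 to 5 with single libraries left out. Same-numbered libraries did not deviate together (correlation over genes -0.0015 in CFPAC-1 and 0.0495 in PANC-1) and share only a number. The block and the smaller fits leave fewer residual degrees of freedom. Genes called in all ranged over the alternatives from 50 to 160 up and 7 to 104 down in CFPAC-1 (113 and 60 as reported), from 26 to 206 up and 6 to 297 down in PANC-1 (158 and 153), and from 1 to 23 up and 12 to 54 down for the difference (14 and 30). Without ABCG1, a choice added after seeing the data, 15 members in place of 16 were lower in PANC-1 with DMSO, and no other count of called members moved. FPKM give no depth, so a small difference that was not called is not shown to be absent.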
